A study of Homo sapiens with 52 samples.

Results

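The genes of Polycomb repressive complex 2 (PRC2) were followed across 52 RNA-seq samples of fusion-positive rhabdomyosarcoma (FP-RMS), a childhood muscle-lineage cancer whose cells carry the PAX3-FOXO1 fusion. The members were chosen by gene name: EZH1, EZH2, EED, SUZ12, RBBP4, RBBP7, MTF2, PHF19, AEBP2 and JARID2, that is 10 of the 27043 genes of the tables. All 10 passed the filter on low values that left 16359 genes for testing. In the screen, 20 small molecules were each given for 6 h at a high and a low dose, 1 sample per dose, beside 4 DMSO (solvent) samples, 2 at 0.2% for the high doses and 2 at 0.1% for the low doses. The high dose was 10 µM and the low dose 1 µM, except for LAQ824, Cpd50 and GSKJ4, which were given at 5 and 0.5 µM. A second experiment held N1302 at 1 µM for 6 h with 1 DMSO sample, and another held entinostat at 1 µM and 0.1% DMSO at 1, 6 and 24 h, 1 sample each. The cell line label of every sample is RH4, an established FP-RMS line, whereas each of the 44 screen titles reads RH41, so screen samples were set only against screen samples. Nothing in the labels ties the samples to separate cultures, so p-values measure only the spread between these samples. In the comparisons of compounds with DMSO, that spread includes the difference between the 2 doses of each compound. The rest of it may be technical.

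PRC2 writes methyl groups on lysine 27 of histone H3, a mark of silenced developmental genes. EZH2 and EZH1 are the alternative catalytic subunits, EED binds the finished mark and SUZ12 holds the complex together. RBBP4 and RBBP7 are histone-binding WD40 proteins that PRC2 shares with the NuRD, SIN3 and CAF-1 complexes, where RBBP4 and RBBP7 sit beside the deacetylases HDAC1 and HDAC2 in NuRD and SIN3. The Polycomb-like proteins MTF2 and PHF19 define the PRC2.1 form of the complex, and AEBP2 and JARID2 the PRC2.2 form. The screen set inhibitors of EZH2 and EZH1, which block the enzyme, beside histone deacetylase (HDAC) inhibitors, which raise histone acetylation. It thereby asked which of the PRC2 genes change in transcript level when either process is blocked.

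The promoters of 4 members are shown because these genes held the largest called differences from DMSO, PHF19 and AEBP2 downward and EZH1 and EZH2 upward. The sequences are RefSeq's (build GRCh38.p14), 250 bases before to 50 after the transcription start that lies farthest upstream, read on the gene's own strand, and all 10 members had an entry. Capitals mark the CCAAT box (CCAAT) and the E2F-type words TTTCCCGC, TTTCGCGC, TTTGCCGC and TTTGGCGC, each on either strand.
PHF19 (chr9:120877139-120877438, minus strand): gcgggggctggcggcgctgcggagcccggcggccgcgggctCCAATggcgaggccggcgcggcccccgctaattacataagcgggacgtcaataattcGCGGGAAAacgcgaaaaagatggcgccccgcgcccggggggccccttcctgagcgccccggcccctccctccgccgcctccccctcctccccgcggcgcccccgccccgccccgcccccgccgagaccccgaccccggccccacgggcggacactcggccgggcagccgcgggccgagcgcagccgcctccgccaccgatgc
AEBP2 (chr12:19440349-19440648, plus strand): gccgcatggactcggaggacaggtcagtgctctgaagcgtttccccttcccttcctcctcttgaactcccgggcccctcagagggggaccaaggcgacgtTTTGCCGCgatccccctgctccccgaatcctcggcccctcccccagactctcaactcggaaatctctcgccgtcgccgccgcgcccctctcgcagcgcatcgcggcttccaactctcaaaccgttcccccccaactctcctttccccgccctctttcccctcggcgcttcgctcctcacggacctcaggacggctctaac
EZH2 (chr7:148884242-148884541, minus strand): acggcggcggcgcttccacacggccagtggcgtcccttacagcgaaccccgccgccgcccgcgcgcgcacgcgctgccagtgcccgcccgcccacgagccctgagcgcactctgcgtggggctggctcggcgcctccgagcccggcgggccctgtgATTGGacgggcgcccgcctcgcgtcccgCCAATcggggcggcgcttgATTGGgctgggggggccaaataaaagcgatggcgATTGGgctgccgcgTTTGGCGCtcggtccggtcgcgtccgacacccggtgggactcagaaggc
EZH1 (chr17:42744991-42745290, minus strand): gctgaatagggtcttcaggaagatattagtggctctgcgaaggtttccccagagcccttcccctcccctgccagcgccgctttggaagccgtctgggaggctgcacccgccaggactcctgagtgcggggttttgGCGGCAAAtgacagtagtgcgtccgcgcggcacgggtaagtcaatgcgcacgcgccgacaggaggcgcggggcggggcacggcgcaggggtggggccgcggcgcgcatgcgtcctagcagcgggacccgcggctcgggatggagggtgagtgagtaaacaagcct
Each of the 4 windows held 1 E2F-type word, EZH2 held 4 CCAAT boxes, PHF19 held 1 and AEBP2 and EZH1 held none. Over all members an E2F-type word was present in 6 of 10 promoters and a CCAAT box in 7 of 10, against 3.31% and 34.6% of all 35116 promoters of this length. The share of all promoters counts every listed start of a gene, whereas each member is counted at 1 start. Promoters of like G and C content were not compared. The E-box CAGCTG, a word bound by MYOD1 and MYOG, was present in 1 of the 10 promoters, that of RBBP7, and in 17.9% of all promoters. The 4 windows were 65.7% to 79.7% G and C, where the median of all promoters was 58.7%, and these matches are a description of the letters, not of binding.

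The values are TPM (transcript abundance scaled to transcript length and library size), a level that can be compared between genes. Whole read numbers recovered from the TPM values summed to 5737939 to 41415071 per sample, and the 14 compounds on flow cell C5JW5ACXX, which held no DMSO sample, had a median of 10571891 against 23569932 on H144EBGXX. The muscle markers MYOD1 (640 to 648 TPM), MYOG (572 to 587) and DES (413 to 443) were high in the screen DMSO samples. CDH3, listed as a rhabdomyosarcoma marker and expected to be on, was nearly absent there at 0.280 to 0.389 TPM. The markers of other cell types (PTPRC, CD3E, EPCAM, KRT8, PECAM1, ALB) summed to 0.282 to 3.23 TPM in any of the 52 samples. The 2 DMSO samples of each concentration sat on different flow cells. The difference between flow cells was the same at both concentrations within counting noise, with a variance of 1.03 times that noise over 10378 genes, so the samples of a concentration were counted as 1 in the DMSO mean ± SD, which is over n = 2 concentrations. The 10 µM samples of PFI-2, bromosporin and Merck60 held fewer odd read numbers (42.4% to 46.1%) than the other 49 samples (49.001% to 50.9%), and calls under bromosporin are given with and without that sample. In bulk RNA, fewer cells and less RNA per cell cannot be told apart.

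In the files' build, hg19, EZH2 lies at chr7:148504464-148581441 and EZH1 at chr17:40852293-40897114, PHF19 at chr9:123617929-123657174 and MTF2 at chr1:93544792-93604638, AEBP2 at chr12:19592608-19675173 and JARID2 at chr6:15246206-15522273. The shared core lies at chr11:85955426-85989852 (EED), chr17:30264029-30328064 (SUZ12), chr1:33116749-33151812 (RBBP4) and chrX:16862775-16888534 (RBBP7). In DMSO the histone-binding subunits were highest and EZH1 lowest. RBBP7 stood at 180 ± 3.95 TPM, RBBP4 at 138 ± 1.87, EZH2 at 118 ± 6.31 and SUZ12 at 92.3 ± 0.867 (SD, n = 2). PHF19 followed at 62.9 ± 1.10, MTF2 at 54.4 ± 0.396, EED at 48.999 ± 1.37, AEBP2 at 44.6 ± 1.37, JARID2 at 39.5 ± 0.248 and EZH1 at 20.6 ± 2.70. The 4 DMSO samples of neighbours in this order did not overlap, except that AEBP2 (42.1 to 48.2 TPM) reached into the range of EED (47.9 to 50.1). EZH2 thus stood 5.39 to 6.15 times above EZH1 in each DMSO sample. Across the 40 treated screen samples the span from the lowest to the highest sample was 13.97-fold for PHF19, 3.73-fold for AEBP2 and 3.14-fold for JARID2, and between 1.60-fold for EED and 2.61-fold for EZH1 for the rest. PHF19, AEBP2 and JARID2 held the widest spans, and the accessory subunit MTF2 (1.63-fold) and the shared core EED, SUZ12, RBBP4 and RBBP7 spanned less than 2-fold.

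**Figure D1:**
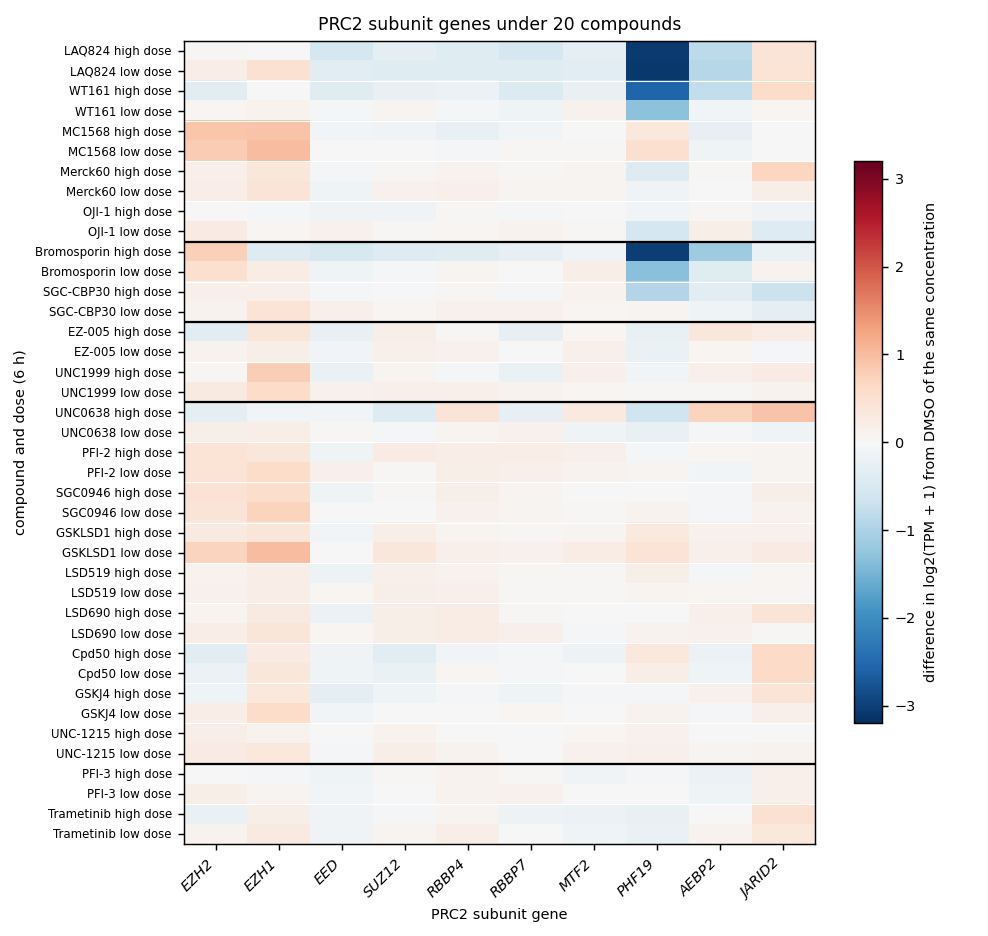
Difference in log2(TPM + 1) from the mean of the 2 DMSO samples of the same concentration (colour, blue lower, red higher) for 10 PRC2 subunit genes (columns) in 40 treated samples (rows, high and low dose of 20 compounds), black lines separating HDAC, bromodomain, EZH, other methylation and other compounds. PHF19 is deep blue under LAQ824, WT161 and bromosporin, and EZH2 and EZH1 are red under MC1568.

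A gene was called under a compound at an adjusted p below 0.05 (limma, Benjamini-Hochberg over 16359 genes) in the comparison of both doses with the 4 DMSO samples. Here the 4 DMSO samples were counted as separate samples. Of 200 such tests of members 20 were called, 12 lower and 8 higher, in 8 of 20 compounds, where 12.2% of all tests of all genes were called. The 5 HDAC inhibitors gave 11 calls in 50 tests (26.8% over all genes), the 2 bromodomain inhibitors 4 in 20 (27%), EZ-005 and UNC1999 together 1 in 20 (0.614%), the 9 other compounds aimed at histone methylation 4 in 90 (5.46%), and PFI-3 with trametinib 0 in 20 (2.77%). Summed over compounds, the members were thus called about as often as genes at large, and the shares of single compounds stand beside their calls below. With the DMSO samples averaged per concentration, limma lost RBBP7 under WT161 (adjusted p = 0.0609) and EED under bromosporin (0.0538). It also lost EZH1 under UNC1999 (0.165) and SGC0946 (0.202), EZH2 under GSKLSD1 (0.0652) and JARID2 under Cpd50 (0.135).

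Under the inhibitors aimed at PRC2 itself 1 member was called, and the ratio of EZH2 to EZH1 was low at 10 µM. EZ-005, labelled as an EZH2 inhibitor, gave 0 called members by limma, with 1 (EZH1, 0.29) at an unadjusted p below 0.05, where 0.538% of all genes were called in either direction. In the fit of EZ-005 with DMSO alone, SUZ12 (0.17, adjusted p = 0.0357) and PHF19 (−0.23, adjusted p = 0.0335) were called, among 1947 genes. EZH2 stood at 95.9 TPM at 10 µM and 123.6 at 1 µM of EZ-005, against 122.2 and 123.2 in 0.2% DMSO and 112.7 and 114.9 in 0.1% DMSO. The high dose lay below the 4 DMSO samples and the low dose just above them, and the mean difference was −0.12 ± 0.12 (SE) on the log2(TPM + 1) scale, with a 95% interval of −0.37 to 0.13 (adjusted p = 0.786). UNC1999, labelled as an EZH1 inhibitor and known to block EZH2 as well, left EZH2 at 126.3 and 140.0 TPM, a difference of 0.17 with an interval of −0.08 to 0.42. The other members, EZH1 under UNC1999 aside, had differences between −0.23 for PHF19 and 0.29 for EZH1, both under EZ-005. The intervals of PHF19 were the widest of the set, −0.87 to 0.41 for EZ-005 and −0.67 to 0.61 for UNC1999. Falls such as those described below for LAQ824 lay outside them. Their spread is shared by all compounds and includes PHF19 dose gaps from −1.70 under bromosporin to 0.43 under OJI-1. EZH2 stood 3.24 times above EZH1 at 10 µM of EZ-005 and 5.73 times at 1 µM. For UNC1999 these ratios were 3.21 and 4.91, against 5.39 to 6.15 in DMSO. They were not tested, and DMSO sat on other flow cells.

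One member was called under UNC1999: EZH1 rose to 39.4 TPM at 10 µM and 28.5 at 1 µM, against 18.7 to 22.7 in DMSO, a difference of 0.68 ± 0.14 (adjusted p = 0.0184), where 0.214% of all genes were called higher. Both samples lay above all DMSO samples. The call was lost without the 10 µM sample (0.46, adjusted p = 0.567) and without any of 3 of the 4 DMSO samples, 1 at a time (adjusted p = 0.0502 to 0.0704). Set against the other compounds of its flow cell, the difference was 0.46 (adjusted p = 0.539), and with the DMSO samples averaged per concentration the adjusted p was 0.165. EZH1 lay above the matching DMSO in 35 of 40 treated samples and fell below it in 5, and on C5JW5ACXX its median difference was 0.24 over 28 samples. The compounds of that flow cell and the DMSO samples were sequenced apart, so the part of the flow cell in this difference cannot be told apart. EZ-005 and UNC1999 did not separate from each other in any member, and 0.0306% of all genes did. The largest difference between them was in EZH1, lower under EZ-005 by a log2 difference of −0.39 (95% interval −0.72 to −0.07, adjusted p = 0.743).

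PHF19, the Polycomb-like reader that recruits PRC2.1, fell furthest. It measured 60.7 and 63.6 TPM in 0.2% DMSO and 64.2 and 63.2 in 0.1% DMSO. Under LAQ824, labelled as a general HDAC inhibitor, it fell to 6.52 TPM at 5 µM and 6.56 at 0.5 µM, a difference of −3.08 ± 0.31 (adjusted p = 9.6e-09). Under WT161, labelled HDAC6, it was at 9.71 TPM at 10 µM and 25.1 at 1 µM, a difference of −1.93 ± 0.31 (adjusted p = 2.7e-05). All 4 samples lay far below DMSO, and WT161 differed between its doses while LAQ824 did not. The bromodomain inhibitor bromosporin gave 6.88 TPM at 10 µM and 24.6 at 1 µM (−2.17 ± 0.31, adjusted p = 1.1e-05), a call that the fit on these samples and DMSO alone did not make (adjusted p = 0.0580). Without the 10 µM sample the difference was −1.32 (adjusted p = 0.00719). SGC-CBP30, aimed at the CREBBP/EP300 bromodomain, gave 32.1 TPM at 10 µM and 68.3 at 1 µM, the high dose below DMSO and the low dose above it (−0.42, adjusted p = 0.461). Merck60 (HDAC1/2, 46.3 and 58.6 TPM) and OJI-1 (HDAC8, 58.4 and 43.0) lay below all DMSO samples. Their differences of −0.27 and −0.32 were not called (adjusted p = 0.833 and 0.801). Against the other compounds of their flow cell, which held no DMSO, the differences were 0.16 and 0.10, also not called. That reference includes WT161 and bromosporin, whose low PHF19 lowers it, so these values cannot be read against those from DMSO. MC1568 (HDAC4/5) lay above all DMSO samples at 79.4 and 91.1 TPM, also not called (0.43, adjusted p = 0.306).

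MTF2, the other Polycomb-like member, moved little beside its paralog. It measured 53.1 to 56.2 TPM in DMSO and 43.5 and 42.0 under LAQ824, a difference of −0.34 ± 0.10 (adjusted p = 0.00636). This call was lost without the 0.5 µM sample (adjusted p = 0.0577). PHF19 stood 1.13 to 1.197 times as high as MTF2 in DMSO, and 0.150 and 0.156 times under LAQ824, 0.136 and 0.394 under bromosporin and 0.212 and 0.421 under WT161. Under EZ-005 and UNC1999 the ratio was 0.896 to 1.16.

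**Figure D2:**
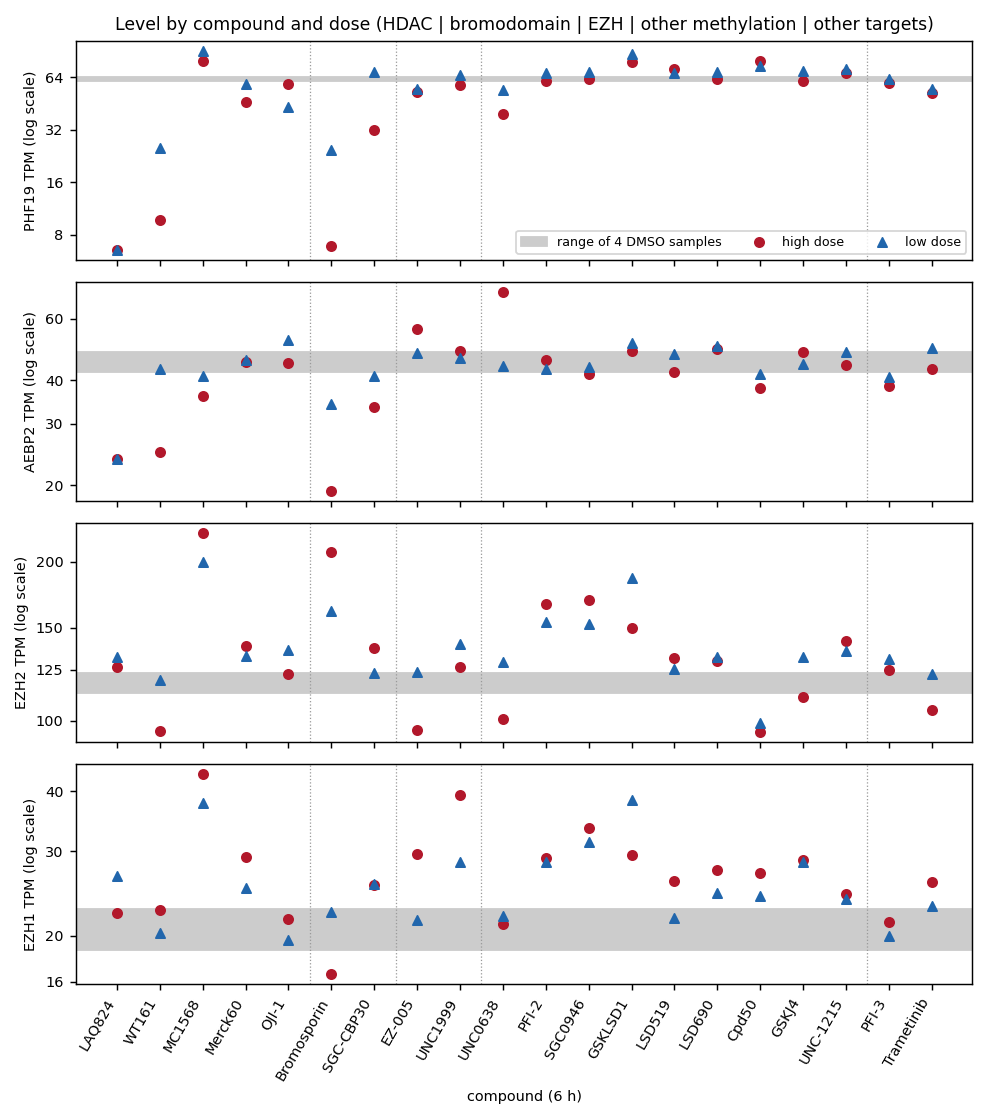
TPM (log axis) of PHF19, AEBP2, EZH2 and EZH1 in the high-dose (circles) and low-dose (triangles) sample of each of 20 compounds, the grey band spanning the 4 DMSO samples. PHF19 reaches 6.52 TPM under LAQ824 and 6.88 under bromosporin, and EZH2 reaches 226.7 TPM under MC1568.

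AEBP2, a zinc finger subunit of PRC2.2, was the second member to fall in several compounds. DMSO gave 42.1 and 45.1 TPM at 0.2% and 42.9 and 48.2 at 0.1%. LAQ824 gave 23.8 TPM at both doses (−0.87 ± 0.18, adjusted p = 0.000222), and bromosporin gave 19.2 and 34.3 (−0.77 ± 0.18, adjusted p = 0.00152). Under WT161 only the 10 µM sample was low, at 24.9 TPM against 43.1 at 1 µM, and the difference of −0.43 was not called (adjusted p = 0.0643). It was called with median-ratio scaling (−0.45, adjusted p = 0.0368), with dose as a covariate (0.0499), with voom (−0.48, 0.0219) and from the 10 µM sample alone (−0.81, 0.00268). The bromosporin call was lost when its 10 µM sample was left out (−0.37, adjusted p = 0.262). JARID2, the PRC2.2 subunit that guides the complex to chromatin, did not follow AEBP2. It measured 37.6 to 41.0 TPM in DMSO, and 53.1 and 53.9 under LAQ824, above all 4 DMSO samples but just short of a call (0.43 ± 0.19, adjusted p = 0.0537). It was called higher within the flow cell (0.45, adjusted p = 0.00488), with median-ratio scaling (0.50, 0.0326), with dose as a covariate (0.0396) and with voom (0.52, 0.00392). Under Cpd50, aimed at Jumonji demethylases, JARID2 rose to 60.8 and 61.6 TPM (0.62 ± 0.19, adjusted p = 0.0344), where 5.07% of genes were called higher. That call was lost without either sample of Cpd50 (adjusted p = 0.242 and 0.190) and without any 1 of the 4 DMSO samples (0.0553 to 0.0926). Under SGC-CBP30 it lay at 23.9 and 31.6 TPM, below DMSO (−0.51, adjusted p = 0.0953).

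The catalytic subunits were not called lower against DMSO under any compound in the fit of all 44 screen samples. In the fit of Cpd50 with DMSO alone EZH2 was called lower (−0.28, adjusted p = 0.00278), among 6722 genes. Under Cpd50 EZH2 stood at 95.1 and 99.1 TPM, below all DMSO samples. Against the DMSO samples of the same flow cell that difference was −0.27 and not called (adjusted p = 0.201). EZH2 measured 112.7 to 123.2 TPM in DMSO and 126.3 and 132.0 under LAQ824 (0.13, 95% interval −0.12 to 0.38, adjusted p = 0.381). Under WT161 EZH2 stood at 95.8 TPM at 10 µM, below all DMSO samples, and at 119.7 at 1 µM, a difference of −0.14 that was not called against DMSO (adjusted p = 0.377) but was called against the flow cell (−0.32, adjusted p = 0.0367). Under MC1568 EZH2 rose to 226.7 and 199.7 TPM (0.84 ± 0.12, adjusted p = 1.3e-05) and EZH1 to 43.4 and 37.8 (0.95 ± 0.14, adjusted p = 1.5e-05). The 10 µM sample of MC1568 held the highest EZH2 and the highest EZH1 level of the 52 samples, and both MC1568 samples lay above all DMSO samples for both genes. MC1568 shared flow cell H144EBGXX with the second DMSO samples, and within that flow cell both differences were called, at 0.83 for EZH2 and 0.96 for EZH1, with PHF19 also called there at 0.42 (adjusted p = 0.0436). Of all genes, 27.6% were called higher under MC1568, and the median of all genes was shifted by 0.26, while the median member was at 0.00. Bromosporin at 10 and 1 µM gave 208.9 and 161.4 TPM of EZH2 (0.63 ± 0.12, adjusted p = 0.000195) but 16.7 and 22.4 of EZH1 (−0.08, adjusted p = 0.667), so that EZH2 stood 12.5 and 7.22 times above EZH1. Without the 10 µM sample the EZH2 difference was 0.45 (adjusted p = 0.0466). Against the flow cell EZH2 was called at 0.51 (adjusted p = 0.00224), and EZH1 (−0.37, 0.0303), SUZ12 (−0.27, 0.0456) and RBBP4 (−0.27, 0.0229) were called lower. GSKLSD1, an LSD1 inhibitor, was called for both: EZH1 reached 29.5 and 38.3 TPM (0.69, adjusted p = 0.00219) and EZH2 150.05 and 186.2 (0.50, adjusted p = 0.0103), where 6.18% of genes were called higher. Neither was called against the other compound of its flow cell, which held no DMSO. That comparison called 0 of 16359 genes, so it cannot decide on these 2. Without the low-dose sample of GSKLSD1 the differences were 0.50 for EZH1 and 0.34 for EZH2, and neither was called. The last EZH1 call was SGC0946, a DOT1L inhibitor (33.6 and 31.3 TPM, 0.64, adjusted p = 0.0254, with 0.434% of genes called higher), lost against its flow cell (0.41, adjusted p = 0.319), without either of its samples (0.553 and 0.102) and without any 1 of the DMSO samples (0.0662 to 0.0816).

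**Figure D3:**
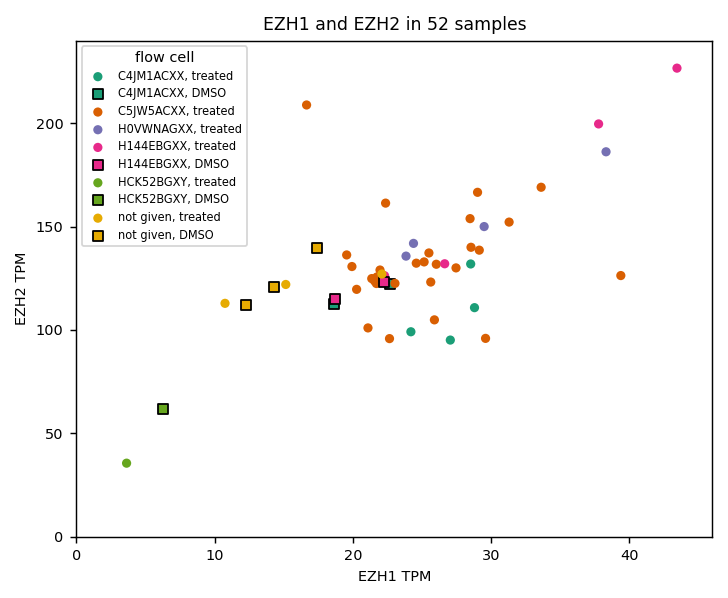
EZH2 TPM against EZH1 TPM in 52 samples, coloured by flow cell, squares for DMSO and circles for treated samples. The MC1568 samples lie at the upper right, the bromosporin 10 µM sample at 208.9 TPM of EZH2 and 16.7 of EZH1, and N1302 with its DMSO at the lower left.

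The shared core moved by small amounts. Under LAQ824 the 4 genes fell together: EED, the reader of the mark, from 47.9 to 50.1 TPM in DMSO to 33.8 and 36.85 (−0.46, adjusted p = 0.000584), and SUZ12 from 89.5 to 93.8 to 74.3 and 70.7 (−0.34, adjusted p = 0.00898). RBBP4 went from 134.6 to 140.3 TPM to 105.6 and 103.9 (−0.40, adjusted p = 0.000622), and RBBP7 from 175.8 to 184.5 to 124.5 and 135.1 (−0.47, adjusted p = 0.000111). In each of the 4 both LAQ824 samples lay below all DMSO samples. With PHF19, AEBP2 and MTF2 this made 7 of 10 members called lower and 0 higher under LAQ824, where 27.8% of all genes were called lower and 32% higher. JARID2 was called higher under the alternatives named above. EZH1, at 22.3 and 26.6 TPM, was called higher with median-ratio scaling (0.31, adjusted p = 0.0478), voom (0.33, 0.0245) and DMSO alone (0.24, 0.0397). The fit with DMSO alone also called EZH2 higher (0.13, adjusted p = 0.00892), among 12548 genes. Against the flow cell neither EZH1 nor EZH2 was called (adjusted p = 0.178 and 0.281). The median member stood at −0.37 and the median gene at 0.06. The SUZ12 call was lost without the 0.5 µM sample (adjusted p = 0.0809), and SUZ12 shares sequence with the pseudogene SUZ12P1 (chr17:29036626-29097068, hg19), which had 37.9 to 45.4 TPM in DMSO and 50.4 and 51.9 under LAQ824. Reads that fit both copies may have been divided between them, so the level of SUZ12 is uncertain to that extent.

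Under WT161 the only other call was RBBP7, at 135.2 and 161.5 TPM (−0.28, adjusted p = 0.0174), so that 2 of 10 members were called lower against 18.3% of all genes. RBBP7 lost its call without the 10 µM sample (adjusted p = 0.401). Under bromosporin EED fell to 34.6 and 43.6 TPM (−0.33, adjusted p = 0.0149), a call also lost without the 10 µM sample (−0.16). The EED call was lost in 4 of 9 alternative settings as well. Under bromosporin 3 members were called lower and 1 higher where 28.9% and 16.2% of all genes were. The 1 µM samples of EED and AEBP2 under bromosporin and of RBBP7 under WT161 also lay below all DMSO samples, though not far enough for a call on their own, while PHF19 was called from either dose of both.

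No member was called under Merck60 (0.416% of all genes called), OJI-1 (0.837%), SGC-CBP30 (8.84%), UNC0638 (23.7%), PFI-2 (1.71%), LSD519 (1.58%), LSD690 (3.6%), GSKJ4 (0.0122%), UNC-1215 (0.0672%), PFI-3 (0.0245%) or trametinib (5.51%), a MEK inhibitor. UNC0638, aimed at the H3K9 methyltransferase KMT1C, had doses that lay far apart in several members, as did bromosporin and WT161. At 10 µM it gave 75.1 TPM of JARID2 and 71.6 of AEBP2, each the highest of the 52 samples, and 185.9 of RBBP4, while at 1 µM these stood at 36.3, 44.01 and 144.4. SUZ12 and PHF19 were low at 10 µM, at 68.1 and 39.3 TPM. With the 10 µM sample alone, the differences from DMSO were 0.91 for JARID2, 0.67 for AEBP2, 0.42 for RBBP4 and 0.33 for MTF2. PHF19 stood at −0.66 and SUZ12 at −0.43, and RBBP7, EZH2, EED and EZH1 lay between −0.24 and 0.04. That fit rests on 1 sample of 6849916 reads and assumes that it varies like the other compounds.

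The HDAC inhibitors were then set against EZ-005 and UNC1999 directly, in the same fit. LAQ824 and MC1568 were sequenced on H144EBGXX and both EZH inhibitors on C5JW5ACXX, so for these 2 compound and flow cell cannot be told apart in this comparison. LAQ824, given at lower doses than the EZH inhibitors, was lower in 7 of 10 members, where 28.8% of all genes were lower: PHF19 by −2.96 ± 0.31 (adjusted p = 1.6e-08), AEBP2 by −1.03 ± 0.18 (adjusted p = 3.2e-05), and SUZ12, RBBP4, MTF2, RBBP7 and EED by −0.49 to −0.36. WT161, at the same doses and on the same flow cell as both EZH inhibitors, was lower in PHF19 (−1.81 ± 0.31, adjusted p = 6.0e-05), AEBP2 (−0.58, adjusted p = 0.0134) and EZH1 (−0.43, adjusted p = 0.0160), against 18.8% of genes. EZH1 under WT161, at 22.7 and 20.3 TPM, lay within the DMSO range of 18.7 to 22.7. It stood at 29.6 and 21.6 TPM under EZ-005 and at 39.4 and 28.5 under UNC1999. The AEBP2 difference was not called without the 10 µM sample of WT161 (adjusted p = 0.579), nor that of EZH1 without either WT161 sample or the 10 µM sample of either EZH inhibitor (0.0542 to 0.120). The EED difference of LAQ824 was not called without its 5 µM sample (0.0755). MC1568 was higher in EZH2 (0.82 ± 0.12, adjusted p = 1.7e-05) and EZH1 (0.46, adjusted p = 0.0115), against 28.2% of genes. The EZH1 difference was lost without the 10 µM sample of MC1568 (adjusted p = 0.207) and without the 1 µM sample of either EZH inhibitor (0.0605 and 0.0583). Merck60 and OJI-1, both at the doses and on the flow cell of the EZH inhibitors, differed from them in 0 members by limma, where 0.0306% and 1.99% of genes differed, with 0 and 2 members at an unadjusted p below 0.05. For PHF19 their 95% intervals ran from −0.78 to 0.50 and from −0.84 to 0.44, which leaves out falls of the size seen under LAQ824 and WT161.

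**Figure D4:**
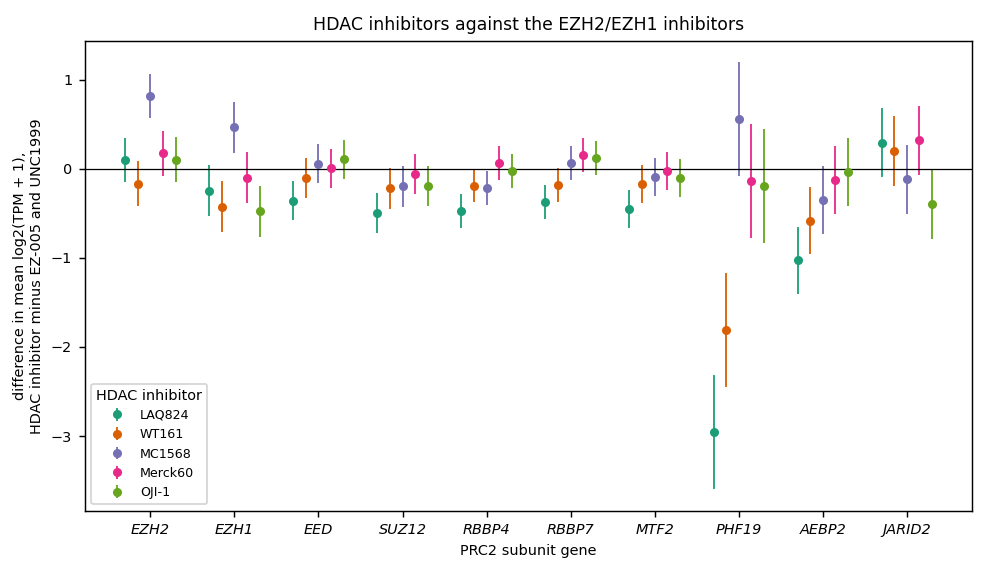
Difference in mean log2(TPM + 1) of each of 5 HDAC inhibitors from the mean of EZ-005 and UNC1999, with 95% limma intervals, for 10 PRC2 subunit genes. LAQ824 and WT161 lie at −2.96 and −1.81 for PHF19, MC1568 lies at 0.82 for EZH2, and Merck60 and OJI-1 lie at −0.14 and −0.20 for PHF19.

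With compounds as the units, the 5 HDAC inhibitors did not separate from the 2 EZH inhibitors in any member or any gene (0% called by limma, 286 genes at an unadjusted p below 0.05). PHF19 differed by −0.91 with a 95% interval of −3.00 to 1.18. The same held for the 7 acetylation-axis compounds (HDAC and bromodomain) against the 11 methylation-axis compounds, with 0% of genes called and 5018 at an unadjusted p below 0.05. There PHF19 differed by −1.15 ± 0.35 (adjusted p = 0.0616) and AEBP2 by −0.42 ± 0.12 (adjusted p = 0.0588). Both passed with a filter of a mean TPM of at least 5 (adjusted p = 0.0488 and 0.0477), where 833 of 11106 genes did.

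No member passed the test of dose. Over 20 compounds the high dose minus the low dose gave 0% called genes, with 2874 at an unadjusted p below 0.05, 4 members among them. PHF19 was lower at the high dose in 17 of 20 compounds, by a mean of −0.28 ± 0.50 (SD, n = 20 compounds; adjusted p = 0.186), from −1.70 under bromosporin to 0.43 under OJI-1. JARID2 ran from −0.39 under SGC-CBP30 to 1.03 under UNC0638. The solvent concentrations did not differ by test (0% of genes called, 1548 at an unadjusted p below 0.05). EZH1 stood at 22.7 and 22.3 TPM in 0.2% DMSO and at 18.7 in both 0.1% samples, a gap of 0.26 that did not pass (adjusted p = 0.504).

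The HDAC inhibitors N1302 and entinostat were given to samples titled RH4, and with 1 sample per condition there is no test. The DMSO samples of these experiments differed from those of the screen: PHF19 stood at 29.99 to 37.8 TPM against 60.7 to 64.2, and EZH1 at 6.28 to 17.4 against 18.7 to 22.7. The 6 h DMSO samples of N1302 and entinostat also differed from each other in some members. EZH2 stood at 61.7 and 120.8 TPM and EZH1 at 6.28 and 14.3, while AEBP2 was level at 41.2 and 41.6. The intervals below are exact 95% intervals for the ratio of reads, and they cover counting error only. Under N1302, 4 members were at least 2-fold lower on the log2(TPM + 1) scale, where 19.3% of all genes were. AEBP2 went from 41.2 to 12.5 TPM (ratio 0.302, 0.274 to 0.333), PHF19 from 37.8 to 13.1 (0.346, 0.309 to 0.387), SUZ12 from 92.6 to 35.6 (0.385, 0.360 to 0.411) and MTF2 from 70.3 to 28.3 (0.403, 0.372 to 0.435). EZH2 went from 61.7 to 35.51 TPM (0.576, 0.526 to 0.630), RBBP4 from 151.4 to 86.8 (0.573) and EZH1 from 6.28 to 3.64 (0.579). JARID2 was the only member above its control, at 25.6 against 23.4 TPM. The 6 h DMSO sample of the entinostat experiment held 38.4 TPM of JARID2, above both. The median member stood at −0.79 and the median gene at −0.11. With median-ratio scaling of the samples MTF2 moved to −0.96, EED to 0.15 and JARID2 to 0.44, and AEBP2, PHF19 and SUZ12 stayed below −1 (−1.34, −1.15 and −1.03).

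Entinostat, labelled HDAC1/2/3, left the members near DMSO at 1 h, and PHF19, RBBP4 and JARID2 stood furthest from it at 24 h. At 1 h PHF19 measured 31.0 TPM against 30.5 in DMSO, and no member passed 2-fold in either direction, where 1.24% of all genes did. At 6 h JARID2 was at 57.3 TPM against 38.4 (ratio 1.49, 1.42 to 1.57) and PHF19 at 24.3 against 29.99 (0.809, 0.751 to 0.871), and again no member passed 2-fold, where 6.08% of genes did. At 24 h PHF19 was at 11.6 TPM against 33.3 (0.349, 0.318 to 0.383), the 1 member at least 2-fold lower, where 6.06% of genes were. RBBP4 was at 74.2 TPM against 134.2 (0.553, 0.537 to 0.569) and JARID2 at 70.2 against 41.0 (1.71, 1.64 to 1.79). AEBP2, lower at 6 h (34.0 against 41.6 TPM), was level with DMSO at 24 h (45.5 against 45.9), and EZH2 stayed within 0.911 to 1.01 times its control at the 3 times.

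**Figure D5:**
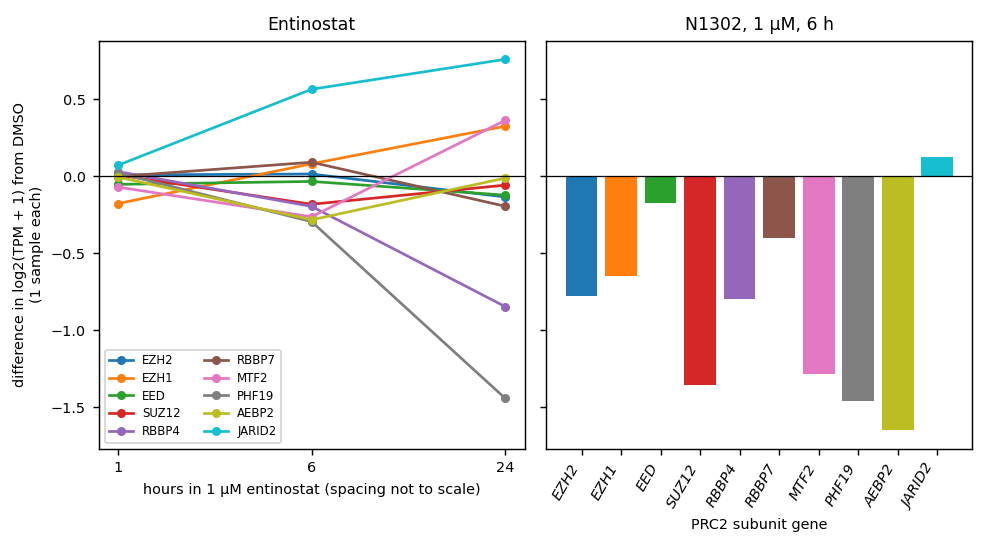
Difference in log2(TPM + 1) from the DMSO sample of the same experiment and time, 1 sample each, for 10 PRC2 subunit genes: lines for entinostat at 1, 6 and 24 h, bars for N1302 at 6 h. PHF19 reaches −1.44 and JARID2 0.76 after 24 h of entinostat, and AEBP2 is lowest under N1302 at −1.65.

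The rest of the Polycomb system was read from lists of its genes. Under LAQ824, 11 of 20 tested subunits of PRC1, the complex that ubiquitinates histone H2A, were called lower and 3 higher, with a list median of −0.45. The 3 largest falls were the PRC1.1 subunit BCOR (−2.53), the ring partner BMI1 (−1.58) and PCGF2 (−1.52), and the rises included the chromobox readers CBX7 (1.60) and CBX8 (0.79). These counts stand against 27.8% of all genes lower and 32% higher. Of 3 tested further partners of PRC2 none was called. Of 6 genes acting against Polycomb marks 3 were lower: the H3K27 demethylase KDM6A (−1.17) and the BAP1 cofactors ASXL2 (−0.92) and ASXL1 (−0.86). Of 9 tested textbook Polycomb target genes 3 were higher, led by the cell cycle inhibitor CDKN2B (2.35), OLIG2 (0.71) and PAX6 (0.63), and 4 lower, among them FOXC1 (−0.71), CDKN1C (−0.64) and GATA6 (−0.48). The share of target genes called higher was near that of all genes. Under EZ-005 and UNC1999 no gene of these lists was called, where 0.538% and 0.691% of all genes were, and the textbook targets had medians of 0.01 and −0.29.

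Among 11141 genes with a mean TPM of at least 5, the 3 whose means over the 20 compounds ran most like EZH2 were PAXBP1 (Pearson r = 0.90), GBAP1 (0.85) and GUSB (0.84), and for EZH1 AP1G2 (0.92), PRPF40B (0.89) and PAN2 (0.89). EZH1 and EZH2 themselves correlated at 0.48 over the 20 compounds. EED, RBBP7 and AEBP2 each gave a Pearson r of 0.81 with PHF19, but Spearman coefficients of 0.28, 0.50 and 0.24, so the likeness lay mostly in the few compounds with the lowest levels. JARID2 against PHF19 gave −0.09 and JARID2 against AEBP2 0.03. These values are a description over 20 compounds that share 4 flow cells and 4 DMSO samples.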

How the data were processed

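RNA-seq of 52 samples was analysed. The authors aligned reads to hg19 with STAR, estimated levels with RSEM and deposited TPM per gene, and the submitters' processing notes also name edgeR, whose role is not given in the sources used here. Genes with TPM of at least 1 in at least 2 samples were kept, and TPM was taken to log2(TPM + 1). Then limma (version 3.58.1, R 4.3.3) was fitted to the 44 screen samples with a mean per compound and 1 per DMSO concentration. The reference was the average of the 2 DMSO means, and Benjamini-Hochberg adjustment ran over 16359 genes. Comparisons of compounds as units used 1 mean per compound. All screen comparisons share the 4 DMSO samples. A fold change on this scale understates that of low genes. Whole reads were recovered from the TPM values (100% of 23645 genes whole within 0.0001), and 120 reads were the fewest behind any member value. On simulated data for LAQ824 the fit called 78 of 100 genes changed by 1 and 98 of 100 changed by 2 (log2) among 16359 genes. DMSO samples with the same replicate number shared a flow cell, and over all 16359 genes tested their deviations correlated at 0.0719. Over the 10378 genes with at least 100 reads the difference between flow cells had a variance of 2.21 times counting noise.

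The members and the lists were chosen with earlier results of these data known. The text names all members, for the other lists up to 3 rises and 3 falls called under LAQ824, the 3 genes most like EZH2 and EZH1, and copies of members; some named by this rule are not reported here. Python 3.11.15, numpy 2.4.6, pandas 2.3.3 and scipy 1.17.1 were used.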

Additional observations from a re-analysis of the deposited data

Results flagged for a closer look

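One value stood apart among related compounds. The MTF2 difference of LAQ824 from DMSO, −0.34 on the log2(TPM + 1) scale, was the lowest among the 7 HDAC and bromodomain inhibitors. WT161 came next at −0.05, and the gap was 0.665 of the whole range. Of 20 such groups of compounds and members 1 stood apart by this measure, and chance alone flags about 1 in 20.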

How the results depend on the processing

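No called member changed direction under any alternative run, but EED under N1302, which has no test, moved from −0.17 to 0.15 with median-ratio scaling. Counts of called members kept within 1.5 times of their value under another pseudocount, no filter, dose as a covariate, median-ratio scaling and voom on whole reads (chosen after seeing the data). Of the 20 calls against DMSO, 3 had at least a 2-fold change, and a fit of each compound with DMSO alone gave 54. For the HDAC inhibitors (11 calls) these were 2 and 17, and for EZ-005 and UNC1999 (1 call) 0 and 2, with 0 when DMSO replicates were averaged or the reference came from the same flow cell. Of the 12 differences between HDAC and EZH inhibitors 3 were at least 2-fold. Over all genes the calls against DMSO moved from 88 to 9 for EZ-005 and from 113 to 10 for UNC1999 with DMSO averaged. They moved to 1 and 6 with the reference from the same flow cell, and to 1947 for EZ-005 in the fit with DMSO alone. In that last fit they rose from 9779 to 12548 for LAQ824, from 5294 to 9380 for MC1568 and from 1704 to 6722 for Cpd50. They fell there from 7375 to 2554 for bromosporin and from 6679 to 5464 for WT161. With a 2-fold minimum they moved from 9779 to 4210 for LAQ824, from 6679 to 1744 for WT161 and from 5294 to 1211 for MC1568. With voom those of Merck60 moved from 68 to 230 and those of OJI-1 from 137 to 37. Leaving out 1 sample gave 17 to 30, 9 to 15, 0 to 1 and 10 to 15 calls. Between the axes 2 members passed with a mean TPM of at least 5, and 0 to 3 when 1 compound was left out. These were 2 without MC1568, 3 without Merck60 and 2 without OJI-1, where 2503, 2673 and 3056 of 16359 genes passed. With the replicate block, 0 members differed between DMSO concentrations, as without it. PHF19 under N1302 moved from −1.46 to −1.15 with median-ratio scaling and to −1.30 with both 6 h DMSO samples. The cause of these shifts was not tested. At 1 sample per dose, effects of a single dose have no replicate check.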

Other observations

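The genes that share RBBP4 and RBBP7 with PRC2 also differed under LAQ824. Of 17 subunits of NuRD, SIN3 and CAF-1, 9 were called lower and 5 higher by limma (list median −0.41, median of all genes 0.06), where 27.8% of all genes were called lower and 32% higher, so that the share called higher was near that of all genes. The falls were led by the NuRD subunits MBD3 (−1.70), CHD3 (−1.52) and MTA3 (−1.45), and the rises by the CAF-1 subunit CHAF1B (0.91) and the SIN3 subunits SAP18 (0.77) and SAP30 (0.52). Of 16 replication genes driven by E2F, 8 were lower, led by TYMS (−1.52), MCM7 (−1.20) and MCM5 (−0.97), and 2 higher, among them CDC6 (1.01). Under EZ-005 and UNC1999 no gene of either list was called.

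The pseudogene SUZ12P1 was called higher under MC1568, at 92.3 and 80.0 TPM against 37.9 to 45.4 in DMSO (1.05 on the log2(TPM + 1) scale, adjusted p = 7.4e-06 by limma). SUZ12 stood at −0.05 there (adjusted p = 0.769). SUZ12P1 was also called higher by limma under SGC0946 (0.61, adjusted p = 0.0441), GSKLSD1 (0.57, 0.0118) and UNC0638 (0.54, 0.0091). Of all genes, 27.6% were called higher under MC1568, 0.434% under SGC0946, 6.18% under GSKLSD1 and 5.82% under UNC0638.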
